A study of Mus musculus with 9 samples.

Results

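The Hedgehog signalling genes described here are 6 of the 13499 genes in the authors' table: Gli1, Gli2, Ptch1, Smo, Sufu and Kif7. They were taken by their names in that table, and all 6 were found in all 9 libraries. RNA had been sequenced from mouse embryonic stem (ES) cells of the C57BL/6 strain, which were kept on gelatine in medium containing LIF and divided on a cytometer by how much of a Myc reporter they carried. The 3 populations, Low, Medium and High, had 3 libraries each, described in the labels as biological replicates with no word on whether they were separate cultures or sorts, so the spread given here is that between these libraries and may in part be technical. The labels name GFP-Myc and EYFP as reporters and do not assign them to samples, and they give no treatment, knockout or age that sets the populations apart, so every population is a slice of cultured cells chosen by fluorescence. Depth ran from 11114936 to 16755566 recovered reads per library, and each value below is the authors' normalized read count, a signal on a scale close to CPM.

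In vertebrates, secreted hedgehog ligands bind the membrane protein Ptch1, which otherwise holds Smo, the signal-passing membrane protein of the pathway, inactive. Active Smo acts in the primary cilium, where the kinesin Kif7 and the Gli-binding protein Sufu control how the zinc finger factors Gli1, Gli2 and Gli3 are cleaved, retained or sent to the nucleus. Gli2 is mainly an activator, Gli3 is mainly a repressor when cleaved, and Gli1 is an activator whose gene, like Ptch1, is a standard target of the pathway.

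Gli2 stood apart from the other members: its mean signal was 4.15 times as high in High as in Low, and Medium lay between them. Gli1 and Smo went the other way by a small amount, with mean signals 1.31 and 1.26 times as high in Low as in High. Kif7 and Sufu were 1.45 and 1.27 times as high in High as in Low. Ptch1 spread so widely among the Low libraries that its populations overlapped in each of the 3 comparisons. The 6 genes were chosen with their levels across these populations known, so their differences are given as a description, and the counts of members past a threshold that follow are not evidence for any of them.

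The labels were checked on Myc itself, whose signal was 26.0 ± 1.75 in Low, 67.1 ± 2.54 in Medium and 106 ± 5.71 in High (mean ± SD, n = 3 in each). All 10 ES cell markers listed were in the table, with summed signals of 5382 to 6897 in Low, 6209 to 6833 in Medium and 6530 to 7279 in High. The ES cell sum held genes going both ways. Pou5f1 had means of 1134 in Low and 1515 in High, and Esrrb 363 and 525. Nanog had 288 in Low and 247 in High, and Sox2 475 and 452. Trophoblast markers (7 of 10 in the table) summed to 460 to 555 in Low and 127 to 135 in High. The trophoblast sum was mostly Tfap2c, Rhox6 and Rhox9, with means of 215, 128 and 120 in Low and 95.3, 12.7 and 9.56 in High. Eomes did not fall, with 4.24 in Low and 4.98 in High. Primitive endoderm markers (5 of 10) summed to 255 to 268 in Low and 508 to 528 in High. The endoderm sum was mostly Sparc, with means of 221 in Low and 428 in High, while Dab2 had 6.02 and 2.22. Fibroblast markers (6 of 10) summed to 24.1 to 39.8 in Low, 35.5 to 59.8 in Medium and 28.4 to 41.4 in High. Neural markers (7 of 10) summed to 226 to 232 in Low and 248 to 260 in High. The neural sum held genes going both ways. Sox1 had means of 6.86 in Low and 23.9 in High, and Foxd3 20.8 and 54.6. Tubb3 had 87.0 in Low and 70.3 in High, and Pou3f1 52.2 and 32.3. The part of these other cell types in the values below was not tested, and in bulk RNA fewer cells of a type and less RNA per cell cannot be told apart.

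Libraries also differed in how transcript length related to signal. The median log2 deviation of long transcripts (4729.5 nt or more) minus that of short ones (2100 nt or less) was 0.28, -0.59 and -0.27 in Low replicates 1, 2 and 3, against -0.05 to 0.30 in Medium and -0.07 to 0.25 in High. Since the transcripts of all 6 members are longer than the table's median of 3288 nt, each log2 difference was also computed after removing a length trend from every library.

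Shh, Ihh and Dhh, the 3 mammalian hedgehog ligands, are not among the gene names in the table, and neither is the release protein Disp2. Of 9 listed ligand and release genes, 5 were in the table. Among these, Scube2, a secreted protein that helps release lipid-bearing ligands, rose from 0.294 ± 0.282 in Low to 1.57 ± 0.452 in High (log2 difference 1.01, SE 0.19, adjusted p 0.00429), at a level of a few reads in Low, where edgeR gave a log2 difference of 2.30. Scube3, its paralog, fell from 32 ± 11.5 to 17.9 ± 1.57 (log2 difference -0.75, SE 0.20, adjusted p 0.0208). Without Low 1 its difference was -0.49. The Scube3 call was lost without Low replicate 3, High replicate 2 or High replicate 3, with adjusted p of 0.0508 to 0.0716. Hhat, which attaches palmitate to the ligands, and Disp1, which releases them, did not pass for High against Low (adjusted p 0.135 and 0.466). Hhat did pass for Medium against Low, with 2.43 ± 0.657 in Low and 0.930 ± 0.412 in Medium (log2 difference -0.83, SE 0.21, adjusted p 0.0328). That difference ran from -0.99 to -0.68 when single libraries were left out.

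Among the receptors, Ptch1 (ENSMUSG00000021466, chr13:63508328-63573598 on GRCm38, minus strand, longest annotated transcript 10383 nt) was the most variable member. Its signal was 89.7, 11.8 and 36.5 in Low replicates 1, 2 and 3, from 1275, 132 and 459 reads. It was 74.0, 52.1 and 69.7 in Medium and 56.4, 47.7 and 41.1 in High. Low held both the highest and the lowest of the 9 values, 7.60-fold apart, and so overlapped with both other populations; Medium and High overlapped as well. Mean signals were 46.0 ± 39.8, 65.3 ± 11.6 and 48.4 ± 7.66. The fitted log2 difference was 0.48 (SE 0.54) for High minus Low and 0.90 (SE 0.54) for Medium minus Low. It was -0.42 (SE 0.54) for High minus Medium. On the same strand A930032L01Rik, which is not among the genes in the table, overlaps the Ptch1 gene body by 957 bases. Its part in the Ptch1 values was not tested.

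The Low spread of Ptch1 was rare among all genes. On the log2(signal + 1 CPM) scale its range was 2.82, and 47 of 13499 genes (0.348%) had a range at least as wide, where the median gene had 0.37. After the length correction the range was still 2.13. The log2 difference of High minus Low was 1.16 without Low replicate 1, -0.25 without Low replicate 2 and 0.52 without Low replicate 3, and 0.16 with the length correction, so its sign rests on which Low library is kept. For Medium minus Low the corresponding values without Low replicates 1 and 2 were 1.58 and 0.17. The order of replicates 1, 3 and 2 from high to low that Ptch1 showed in Low was also that of Gli1, Gli2, Sufu and Kif7, but not of Smo. It held for 35.5% of all genes, 71.0% of genes with transcripts of 4729.5 nt or more and 6.74% of those with 2100 nt or less.

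**Figure D1:**
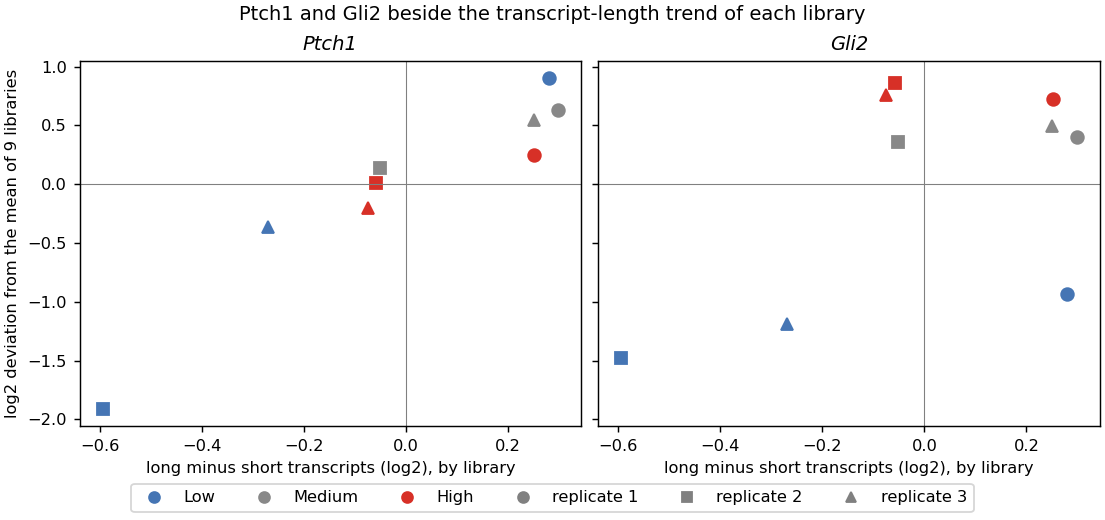
Log2 deviation of Ptch1 (left) and Gli2 (right) in each library from its mean over 9 libraries, against the difference between long and short transcripts in that library (log2, horizontal axis). Points are single libraries, coloured by population and shaped by replicate. Ptch1 lies lowest in Low replicate 2, the library at -0.59 on the horizontal axis, while all 3 Low libraries lie lowest for Gli2 wherever they fall on that axis.

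Smo (ENSMUSG00000001761, chr6:29735503-29761365, plus strand, 3779 nt) had a signal of 42.3, 35.1 and 43.1 in Low, 39.2, 37.4 and 36.3 in Medium, and 31.3, 32.9 and 31.4 in High. Every High library lay below every Medium and Low library, while Medium and Low overlapped. The mean was 40.2 ± 4.43 in Low, 37.6 ± 1.44 in Medium and 31.9 ± 0.90 in High. Fitted log2 differences were -0.32 (SE 0.09) for High minus Low, -0.23 (SE 0.09) for High minus Medium and -0.09 (SE 0.09) for Medium minus Low. The length correction left High minus Low at -0.32. A pseudogene on the same strand, Gm13717, overlaps the Smo gene body by 365 bases and is not among the genes in the table.

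Of 8 other listed receptors and co-receptors, 6 were in the table. Of these, 2 rose and 2 fell from Low to High (66.7% past the threshold, beside 28.4% of all genes). The 6 had a median log2 difference of -0.13 against 0 for all genes. Gpc3, a cell-surface glypican that competes with Ptch1 for ligand, fell from 35.5 ± 0.59 in Low to 25 ± 0.648 in Medium and 18.8 ± 1.48 in High (High minus Low -0.89, SE 0.09, adjusted p 9.22e-05). It also passed for Medium against Low (adjusted p 0.00737). Gas1, a co-receptor, fell from 2.39 ± 0.704 to 1.12 ± 0.184 (adjusted p 0.0249), and Lrp2, an endocytic receptor that takes up hedgehog ligand, rose from 92.8 ± 37.4 to 170 ± 29.1 (adjusted p 0.0187). The Lrp2 transcript measures 15460 nt, and the length correction took its log2 difference from 0.93 to 0.45. Calls for Gas1 and Lrp2 each depended on single libraries: Gas1 was lost without Low 1, Low 3, High 1 or High 3 (adjusted p 0.0504 to 0.082), and Lrp2 without Low 2, Low 3 or High 1 (0.0505 to 0.0739). The co-receptor Cdon (adjusted p 0.923) and Gpr161, a ciliary receptor that restrains the pathway (0.508), did not pass.

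Downstream of Smo, Sufu (ENSMUSG00000025231, chr19:46396896-46488804, plus strand, 4522 nt) had a signal of 29.1, 25.8 and 26.9 in Low, 40.1, 28.2 and 32.7 in Medium, and 37.8, 31.8 and 33.9 in High. All High libraries lay above all Low ones, whereas Medium overlapped with both: its replicate 2 lay within the Low range and its replicate 3 within the High range. Means were 27.2 ± 1.68, 33.7 ± 6.02 and 34.5 ± 3.02, and the log2 difference was 0.33 (SE 0.13) for High minus Low, 0.28 (SE 0.13) for Medium minus Low and 0.04 (SE 0.13) for High minus Medium.

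Kif7 (ENSMUSG00000050382, chr7:79698098-79715720, minus strand, 4577 nt) was the member with the lowest signal. It measured 10.8, 7.07 and 9.23 in Low, 13.5, 10.9 and 13.0 in Medium, and 14.1, 13.1 and 12 in High. Medium and High overlapped with each other and lay above all Low libraries, the closest values being 10.8 in Low and 10.9 in Medium. Means were 9.02 ± 1.86, 12.5 ± 1.39 and 13.1 ± 1.07, with log2 differences of 0.51 (SE 0.15) for High minus Low, 0.44 (SE 0.15) for Medium minus Low and 0.07 (SE 0.15) for High minus Medium. The annotated end of Kif7 overlaps by 51 bases with Ticrr, a gene on the other strand with mean signals of 120 in Low and 193 in High. Use of strand in the counting is not given in the sources used here, so reads in that overlap may belong to either gene. The antisense gene 9330171B17Rik, which is not among the genes in the table, overlaps the Kif7 gene body, introns included, over 2075 bases.

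The transcription factor Gli2 (ENSMUSG00000048402, chr1:118834132-119053619, minus strand, 6637 nt) had the widest separation. Its signal was 14.4, 9.48 and 11.9 in Low, 37.6, 36.7 and 40.3 in Medium, and 47.5, 52.1 and 48.6 in High. The 3 populations did not overlap in any comparison: every Medium library exceeded every Low library, and every High library exceeded every Medium one. Means were 11.9 ± 2.44, 38.2 ± 1.91 and 49.4 ± 2.39, so Medium was 3.21 times Low and High was 1.29 times Medium. The log2 difference was 1.98 (SE 0.13) for High minus Low, 1.62 (SE 0.13) for Medium minus Low and 0.36 (SE 0.13) for High minus Medium. Ranked from the highest, Gli2 was gene 30 of 13499 for High minus Low, gene 28 for Medium minus Low and gene 501 for High minus Medium. With the length correction the values were 1.84, 1.41 and 0.43, and leaving out single libraries moved High minus Low between 1.85 and 2.12.

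Gli1 (ENSMUSG00000025407, chr10:127329882-127341974, minus strand, 4057 nt) had a signal of 61.2, 51.1 and 55.4 in Low, 40.1, 45.1 and 48.5 in Medium, and 40.9, 43.2 and 43.8 in High. All Low libraries lay above all Medium and High libraries, and Medium and High overlapped. Means were 55.9 ± 5.09, 44.6 ± 4.22 and 42.6 ± 1.54, with log2 differences of -0.38 (SE 0.10) for High minus Low, -0.32 (SE 0.10) for Medium minus Low and -0.06 (SE 0.10) for High minus Medium. An antisense gene, Gm47200, which is not among the genes in the table, overlaps the Gli1 gene body, introns included, over 9584 bases. Reads from the 2 strands may have been counted together, and the exonic part of that overlap was not computed. Arhgap9, a protein-coding gene on the other strand, overlaps Gli1 by 62 bases. Its mean signals were 10.4 in Low, 7.55 in Medium and 7.25 in High.

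**Figure D2:**
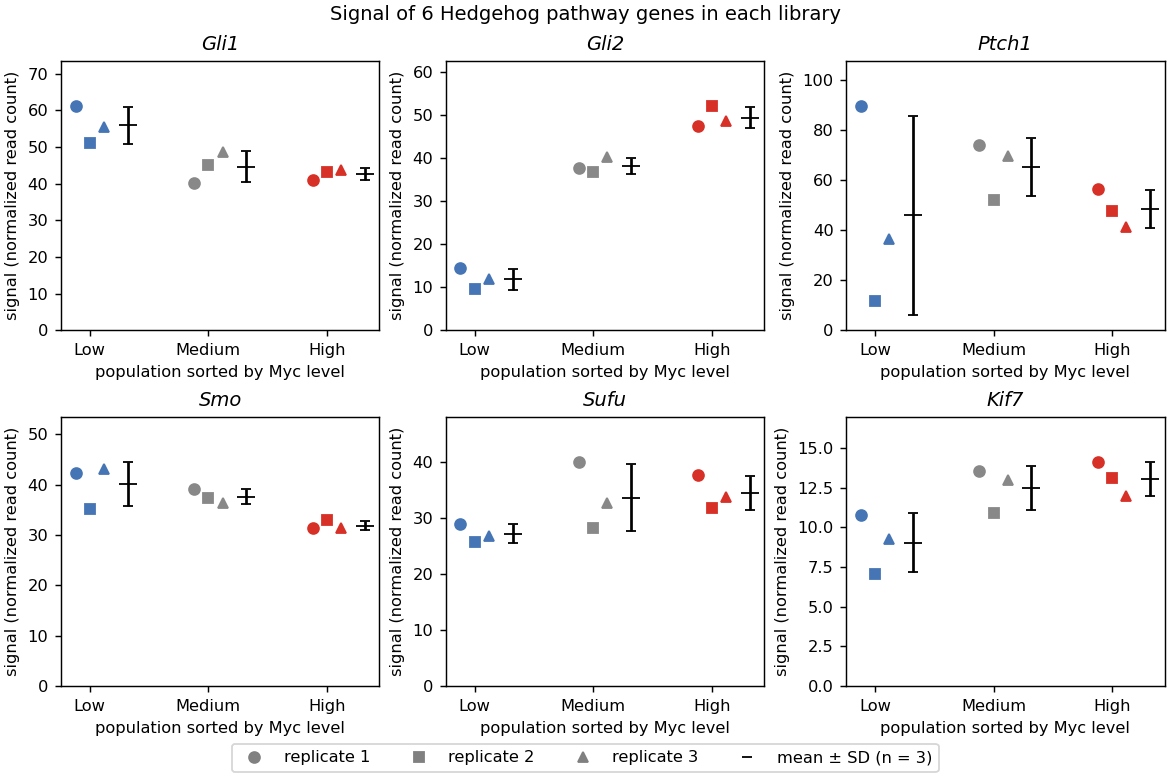
Signal of each of the 6 genes in every library, by population (Low, Medium, High). Points are single libraries, shaped by replicate, and lines mark the mean with its SD over 3 libraries. Gli2 climbs from 9.48 to 14.4 in Low to 47.5 to 52.1 in High without overlap, and Ptch1 spans 11.8 to 89.7 within Low.

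For High against Low, 4 of the 6 members passed limma's threshold (adjusted p under 0.05 over all genes), beside 28.4% of all genes tested. Gli2 and Kif7 were higher (13.8% of all genes) and Gli1 and Smo lower (14.6%). Groups did not overlap for 5 of 6, beside 41.6% of all genes. For Medium against Low, Gli2 passed and was higher (12% of all genes passed and 6.14% passed as higher) and 3 of 6 did not overlap (29.6% of all genes). For High against Medium, none of the 6 passed limma's threshold (0.407% of all genes), 1 passed with the length correction (Gli2, with 2.46% of genes passing), and 2 did not overlap (20.1% of all genes). For High against Low, 5 passed with the replicate number as a block (38.8% of genes) and 5 with the length correction (38.5%). With libraries rescaled to the same total 3 passed (27.4%). When single libraries were left out, 1 to 6 passed, beside 2345 to 5846 of the 13499 genes. For Medium against Low, 4 passed with the block (27.1% of genes) and 3 with the length correction (20.5%). The comparisons share populations and the members were chosen on these contrasts, so nothing is read from these counts about any member.

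**Figure D3:**
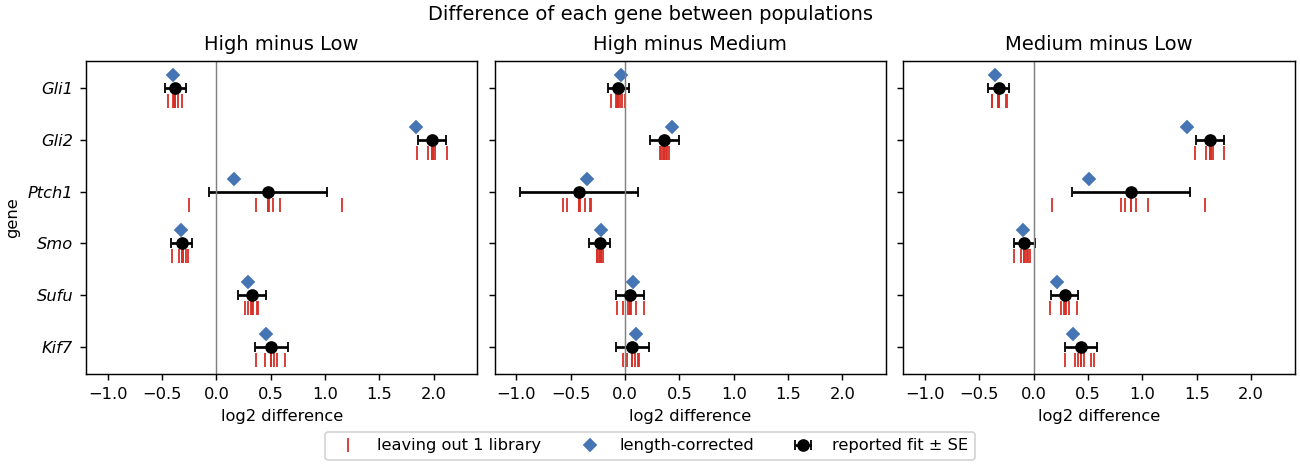
Fitted log2 difference of each gene between populations (horizontal axis), with bars for the standard error, red ticks for fits leaving out 1 library and blue diamonds for the length-corrected fit. Gli2 lies at 1.98 for High minus Low and 1.62 for Medium minus Low, and the ticks of Ptch1 fall on both sides of 0 for High minus Low, from -0.25 to 1.16.

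Set against each other per length, Gli2 took a larger part of the Gli signal in Medium and High than in Low. On the scale of signal per kb of longest transcript, Gli1 stood at 13.8 ± 1.25 in Low, 11 ± 1.04 in Medium and 10.5 ± 0.379 in High, and Gli2 at 1.79 ± 0.367, 5.76 ± 0.288 and 7.44 ± 0.36. Gli3 (chr13:15463235-15730026, plus strand, 8170 nt) stood at 2.00 ± 0.244, 2.15 ± 0.342 and 1.65 ± 0.100. Gli3 signals were 18.3, 14.3 and 16.4 in Low, 17.9, 14.6 and 20.1 in Medium and 13.6, 12.6 and 14.2 in High, and High lay below Low without overlap but did not pass the test (log2 difference -0.25, SE 0.13, adjusted p 0.189, or -0.47 with adjusted p 0.0075 under the length correction). The 3 Gli genes together gave 17.6 ± 1.86 per kb in Low, 18.9 ± 1.43 in Medium and 19.6 ± 0.613 in High. Within that sum Gli2 held 10.1% ± 1.02 in Low, 30.5% ± 1.21 in Medium and 38% ± 1.14 in High. The share of Gli1 was 78.5% ± 1.23, 58.1% ± 2.32 and 53.6% ± 0.655. Gli1 remained the larger of the pair in every library: the ratio of Gli2 to Gli1 per length was 0.129 ± 0.015 in Low, 0.526 ± 0.0408 in Medium and 0.709 ± 0.0292 in High. The ratio of Gli2 to Gli3 per length was 0.891 ± 0.0752, 2.72 ± 0.337 and 4.53 ± 0.481. In Low the SD ranges of the pair overlapped, but Gli2 lay below Gli3 within each library (ratios 0.966, 0.816 and 0.890).

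**Figure D4:**
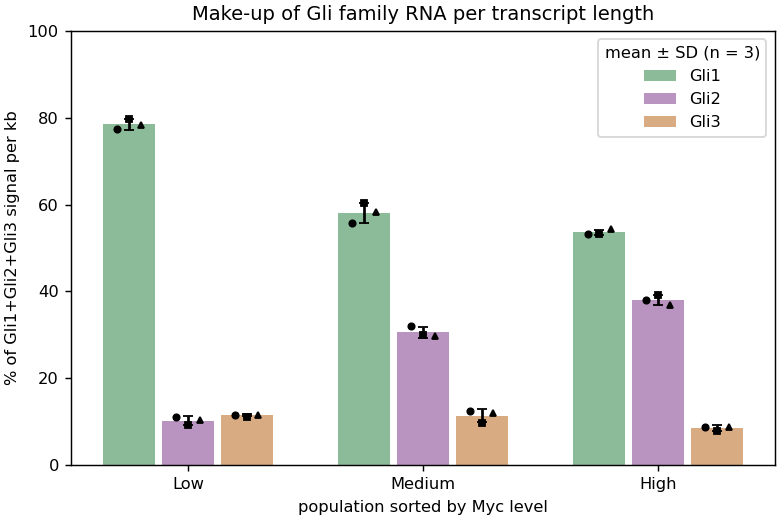
Share of the summed signal per length of Gli1, Gli2 and Gli3 (percent) held by each factor in every library. Libraries are grouped by population, and Gli2 goes from a mean of 10.1% in Low to 30.5% in Medium and 38% in High while Gli1 goes from 78.5% to 53.6%.

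Across the members, signal per kb in Low ran from Gli1 (13.8) through Smo (10.6), Sufu (6.02 ± 0.371) and Ptch1 (4.43 ± 3.83) to Kif7 (1.97 ± 0.406) and Gli2 (1.79 ± 0.367). The SD ranges of Kif7 and Gli2 overlapped there, though Kif7 was the higher of the pair within each Low library. Ptch1 could not be placed against Sufu, Kif7 or Gli2. In High the order was Gli1 (10.5), Smo (8.43 ± 0.238), Sufu (7.63 ± 0.667), Gli2 (7.44 ± 0.36), Ptch1 (4.66 ± 0.738) and Kif7 (2.85 ± 0.234). Sufu and Gli2 lay within each other's spread in High, and the SD ranges of Smo and Sufu overlapped there.

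Promoter sequence is shown for Gli2, Sufu and Kif7, the 3 members whose High libraries all lay above their Low libraries. These are the 250 bases before the annotated start in RefSeq on GRCm38.p6, 5′ to 3′ on the gene's own strand, with CG dinucleotides in capitals. The stretches are chr1:119053620-119053869 (minus) for Gli2, chr19:46396646-46396895 (plus) for Sufu and chr7:79715708-79715957 (minus) for Kif7.
Gli2: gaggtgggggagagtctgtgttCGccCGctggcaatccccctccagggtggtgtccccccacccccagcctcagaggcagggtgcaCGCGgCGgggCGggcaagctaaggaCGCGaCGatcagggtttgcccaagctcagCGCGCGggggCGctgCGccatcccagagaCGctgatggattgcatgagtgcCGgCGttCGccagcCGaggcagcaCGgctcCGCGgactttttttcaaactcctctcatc
Sufu: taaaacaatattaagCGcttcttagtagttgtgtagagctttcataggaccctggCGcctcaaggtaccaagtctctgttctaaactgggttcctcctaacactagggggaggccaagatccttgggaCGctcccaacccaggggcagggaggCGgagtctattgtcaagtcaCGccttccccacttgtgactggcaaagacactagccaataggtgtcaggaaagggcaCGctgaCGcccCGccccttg
Kif7: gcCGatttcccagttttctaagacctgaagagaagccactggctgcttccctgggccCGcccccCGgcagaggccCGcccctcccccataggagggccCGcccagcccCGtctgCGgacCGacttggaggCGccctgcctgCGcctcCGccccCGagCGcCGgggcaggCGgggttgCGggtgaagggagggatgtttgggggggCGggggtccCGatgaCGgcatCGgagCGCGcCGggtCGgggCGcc
The 3 stretches are unlike in composition: Gli2 holds 22 CG dinucleotides and 67.2% G and C, Kif7 holds 25 and 74.4%, and Sufu holds 8 and 54.0%. RefSeq windows were matched for 5 of the 6 members, Gli1 being the other, and each window runs from 250 bases before to 50 bases after the start. Neither the Gli consensus GACCACCCA (TGGGTGGTC on the other strand) nor the E-box CACGTG, a sequence bound by Myc and other factors, was found on either strand in any of the 5 windows. Over all 32851 RefSeq windows the shares with a match were 0.253% and 7.15%. The listed pathway genes had 96 windows, belonging to the 71 genes with an entry. Of these, 0 of 96 held GACCACCCA and 7 of 96 (7.29%) held CACGTG, those of Bmp4, Cdk6, Cul1, Mgrn1, Prkaca, Prkar1a and Wdr19. A window without a match says only that these letters do not occur in it.

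Outside the 6 members, 113 other pathway genes were listed by role and 96 were in the table. For High against Low, 17 rose, 15 fell and 64 did not pass (33.3% past the threshold, beside 28.4% of all genes), and their median log2 difference was -0.02 against 0. With every library rescaled to the same total the split was 12 higher and 16 lower. The count of passing genes came to 40 without Low 1 and to 14, 16, 19 and 15 without Low 3, High 1, High 2 and High 3. For Medium against Low, 8 rose and 4 fell (12.5%, beside 12% of all genes). In the fit with the replicate block these were 18 and 11 (30.2%, beside 27.1% of all genes). For High against Medium, 1 rose, Olig2 (1.04%, beside 0.407% of all genes). The gene groups differed in how many passed, and no test was made between them.

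Regulators of Gli activity were measured in full, 28 of 28. Of these, 5 rose, 3 fell and 20 did not pass from Low to High (28.6%, beside 28.4% of all genes), with a median log2 difference of -0.02. With the replicate block 6 rose and 7 fell (46.4%, beside 38.8% of all genes). With the length correction 6 rose and 6 fell (42.9%, beside 38.5%). Csnk1e, a casein kinase acting on Gli proteins and Smo, rose from 67.0 ± 6.42 in Low to 77.6 ± 4.76 in Medium and 93.8 ± 3.85 in High (High minus Low 0.48, SE 0.09, adjusted p 0.00384). Evc, a ciliary partner of Smo (log2 difference 0.57), Stk36, a kinase related to Drosophila Fused (0.51), and Iqce, which holds Evc at the cilium base (0.41), also rose, with adjusted p of 0.0379, 0.0376 and 0.042. Without Low 2, Evc and Stk36 both had 0.34, and Iqce had 0.25 with the length correction. Arrb1, an arrestin (-0.63, adjusted p 0.0342, with -0.41 when Low 1 was left out), Mgrn1, a ubiquitin ligase (-0.28, 0.0265), and Prkar1a, a regulatory subunit of protein kinase A (-0.24, 0.0444), fell. These 6 calls depended on single libraries: Evc, Stk36, Iqce, Arrb1, Mgrn1 and Prkar1a were lost without 7, 8, 8, 5, 3 and 7 of the 9 libraries taken singly, with adjusted p up to 0.144. The other riser was Spop, a substrate adaptor for degradation of Gli2 and Gli3 (0.40, adjusted p 0.0193), named after its values were seen. Prkaca, a catalytic subunit of protein kinase A, did not pass (0.04, adjusted p 0.802). Prkacb, another catalytic subunit named after its values were seen, did not pass either (-0.22, adjusted p 0.187). It passed as lower with the replicate block (adjusted p 0.0345) and with the length correction (0.0463).

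All 36 listed genes of the primary cilium were in the table, and 2 rose, 3 fell and 31 did not pass (13.9%, beside 28.4% of all genes). Their median log2 difference was -0.01. With the replicate block 5 rose and 3 fell (22.2%, beside 38.8% of all genes). With the length correction 4 rose and 4 fell (22.2%, beside 38.5%). Ttc21b, a retrograde transport subunit that restrains the pathway, fell from 25.4 ± 2.00 to 16.0 ± 0.686 (-0.63, SE 0.12, adjusted p 0.00356). Ift57, an anterograde transport subunit, fell from 8.16 ± 1.15 to 4.62 ± 0.542 (-0.70, SE 0.14, adjusted p 0.00644, or 0.0656 without Low 1 and 2 together). Ift172 (0.55, adjusted p 0.0452) and Ift52 (0.33, 0.0198) rose, and Wdr35 (-0.34, 0.0457) fell. Their calls were lost without 7, 3 and 6 of the 9 libraries taken singly. Ift20 and Ift27 did not pass (adjusted p 0.61 and 0.47).

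Genes reported as hedgehog targets changed in both directions. Of 26 listed, 17 were in the table, and 7 rose, 5 fell and 5 did not pass for High against Low (70.6%, beside 28.4% of all genes), with a median log2 difference of 0.14. The list was written with earlier results of these data known, so nothing is read from that share. Bmp4, a secreted growth factor, had signals of 13.2, 13.9 and 14.1 in Low, 27.1, 31.0 and 27.2 in Medium and 37.8, 37.0 and 37.3 in High, a 2.73-fold rise (log2 difference 1.38, SE 0.09, adjusted p 8.39e-06). No population of Bmp4 overlapped another. Olig2, a basic helix-loop-helix factor of neural progenitors, rose from 19.6 ± 1.18 to 32.7 ± 1.11 and 47.0 ± 0.543 (1.22, SE 0.08, adjusted p 1.08e-05). It was the listed gene that also passed for High against Medium (0.51, adjusted p 0.0322), a call lost without Low 3 or any single Medium or High library (adjusted p 0.0883 to 0.181). Cdk6, a cell-cycle kinase, rose from 5.63 ± 1.53 to 15.0 ± 0.295 (1.30, SE 0.16, adjusted p 0.000312), and Sfrp1, a secreted Wnt-binding protein, rose from 32.1 ± 2.44 to 72.2 ± 3.87 (1.14, SE 0.08, adjusted p 1.87e-05). The other risers, named after their values were seen, were the cyclins Ccnd1 (0.50, adjusted p 0.00367) and Ccnd2 (0.82, 0.0124).

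Among targets that fell, Jag2, a Notch ligand, went from 19.6, 8.59 and 13.0 in Low to 6.34, 5.96 and 5.95 in High (log2 difference -0.98, SE 0.23, adjusted p 0.011). All High libraries lay below all Low libraries. Snai1, a repressor of epithelial genes (-0.91, adjusted p 0.015), Igf2, a growth factor (-0.69, 0.0151), and Hsd11b2, a steroid dehydrogenase (-0.67, 0.0335), also fell. Snai1 was lost without Low 3 or High 1 (adjusted p 0.0538 to 0.0561), Igf2 without High 2 or High 3 (0.053 to 0.0589), and Hsd11b2 without 6 of the 9 libraries taken singly (0.0516 to 0.109). Mycn, a Myc paralog, fell as well (-0.22, adjusted p 0.0393) and was named after its values were seen. Hhip, Foxf1, Foxa2 and Nkx2-2, targets in embryonic tissues, are not among the gene names in the table. Beside these, the standard targets Gli1 and Ptch1 had log2 differences of -0.38 and 0.48, that of Ptch1 turning to -0.25 without Low 2.

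Of 9 Gli-related zinc finger genes, 6 were in the table, with 1 rising and 1 falling from Low to High (33.3%, beside 28.4% of all genes). Glis3 fell (-0.66, adjusted p 0.0286), a call lost without Low 1, Low 3, High 2 or High 3 (0.0548 to 0.104), and Glis2 did not pass (0.11, adjusted p 0.472).

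**Figure D5:**
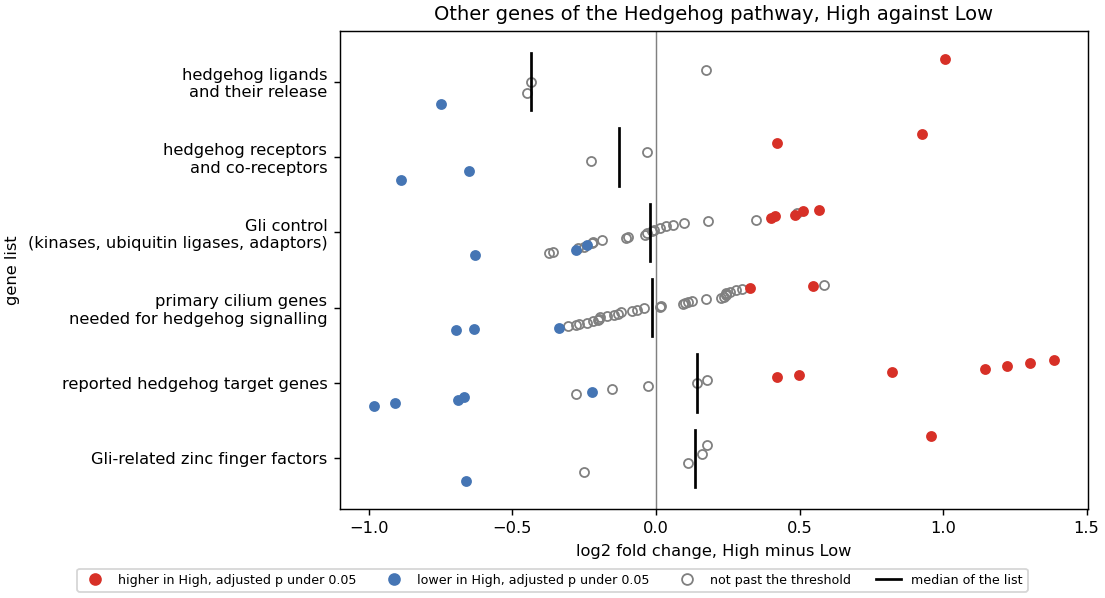
Log2 fold change of each listed pathway gene for High minus Low (horizontal axis), by list, with filled points for genes past limma's threshold and a black line at each list's median. On this scale target genes lie farthest to both sides, from -0.98 for Jag2 to 1.38 for Bmp4, while cilium genes gather around 0. With edgeR on recovered reads Scube2, on the ligand list, lies at 2.30, beyond Bmp4 at 1.45.

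The genes closest to each member were found by Pearson's r of log2 signal over the 9 libraries. These values share the same libraries and length trends and carry no test. For Gli2 they were Irf2bpl (r = 0.998), Esyt1 (0.997) and Kdm3a (0.997), and Irf2bpl went from 70.3 ± 8.35 in Low to 154 ± 4.28 in Medium and 197 ± 3.72 in High. For Gli1 they included Dnm1 (0.973) and Ulk3 (0.953), of which Ulk3 is itself a kinase on the list of Gli regulators. Ulk3 had a signal of 8.25 ± 1.28 in Low, 6.16 ± 0.458 in Medium and 6.11 ± 0.522 in High. For Ptch1 they were Pip4k2c (0.991), Chaf1a (0.990) and Itsn1 (0.985). Itsn1, with a transcript of 14012 nt, measured 111, 69.0 and 89.6 in Low replicates 1, 2 and 3, the same order as Ptch1 over a narrower range. For Smo the closest were Nacc2, Hs6st1 and Myom2 (r from 0.963 to 0.966), for Sufu Npepps, Ube3c and Slc29a3 (0.971 to 0.976), and for Kif7 Neurl4, Tbcd and Igf2bp3 (0.990 to 0.993). With Spearman's rho in place of r, 4 of these 18 genes were named again.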

How the data were processed

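The authors deposited 1 table of 13499 genes with a normalized signal per library, gene counts close to CPM. Tools listed in the submitters' processing notes, without role or order, are RSEM 1.17, limma, cutadapt and Picard. Build, annotation and strandedness were not given in the sources used here. Reads were single-end, 61 nt, per the labels' protocols. Deposited values were whole multiples of 1 read (100% within 0.001 read), from which reads were recovered; column totals ran from 953055 to 1026948. The 85 genes with no name (1.71% to 2.53% of the signal) stayed in the tests.

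Populations were taken from the labels. R 4.3.3 and limma 3.58.1 (trended variance) fitted log2(signal + 1 CPM of each library's total) over all 9 libraries, with population as the only term. Genes needed 1 CPM in 3 libraries, which kept all 13499. The threshold was 0.05 after Benjamini-Hochberg adjustment across the whole table. Fold changes on this scale understate the change of low genes; ratios are of mean signal. edgeR 4.0.16 (quasi-likelihood) and DESeq2 1.42.0 were run on recovered reads as alternatives, besides other pseudocounts, filters and scalings, a variance without trend, a replicate block, a length correction (lowess, span 0.3) and leaving out each library. The script was tested on simulated data.

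Coordinates and longest transcripts were looked up by Ensembl identifier in GENCODE M21 (GRCm38), where 13412 genes (99.4%) had an entry.

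The members, gene lists and naming rule were chosen with earlier results of these data known. Named genes were the members, up to 4 passing genes per list and direction by size of fold, up to 2 not passing, and the 3 genes most like each member. A few genes named by this rule are not reported here. Same-numbered High and Low libraries correlated in their deviations (0.53, 0.26 and 0.18), over the 0.1 of the pairing rule, but so did Low 2 with High 3 (0.31) and Low 3 with High 2 (0.12). High and Medium (0.35, 0.17, -0.04) and Medium and Low (0.24, 0.43, -0.11) did not meet the rule.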

Additional observations from a re-analysis of the deposited data

How the results depend on the processing

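No direction reversed among the called results. For High against Low 3832 genes passed, against 3665 with edgeR and 3870 with DESeq2 on recovered reads. Genes passing for High against Medium (55) came to 260 with DESeq2, 84 without the variance trend, 330 with the length correction and 179 without Low 1 and 2 together, an alternative added after seeing the data. With the replicate block 203 passed for High against Medium and 3656 in place of 1621 for Medium against Low, where the length correction gave 2756. Leaving out 1 library gave 2345 to 5846 genes for High against Low, 11 to 206 for High against Medium and 527 to 5123 for Medium against Low.

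Listed genes for High against Low numbered 20 without Low 1 and 2 and 14 to 40 without 1 library. For High against Medium they numbered 0 with quantile normalization, 4 with DESeq2, 5 with the length correction, 3 without Low 1 and 2, and 0 to 2 without 1 library. For Medium against Low they numbered 29 with the replicate block, 24 with the length correction and 7 to 31 without 1 library.

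Gli2 moved to 1.76 (High minus Low) and 1.42 (Medium minus Low) with a pseudocount of 4 CPM, and to 1.41 for the latter with the length correction. Smo moved to -0.42 and -0.19 without Low 1 and 2. Of the 18 genes most like a member, 4 were shared with Spearman's rho. With 79 to 223 reads, Kif7 had the coarsest counts of the members. The causes of these shifts were not tested.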
